A study of Mus musculus with 18 samples.

Results

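Quiescence transcription factors and antiproliferative genes were followed across 6 sorted CD4+ T-cell populations of mice. The set was taken by symbol, by a choice made with earlier results of these data known, and holds 10 of the 15402 genes of the expression table: Tcf7, Lef1, Klf2, Klf3, Foxo1, Foxo3, Foxp1, Btg1, Btg2 and Tob1. All 10 passed the filter on low values, as did 13190 genes in total. Resting T cells are held out of the cell cycle by an active programme. Its transcription factors keep the genes of survival, lymph node homing and self-renewal on, and the BTG/TOB proteins slow division, in part by bringing messenger RNA to the CCR4-NOT deadenylase. Signals from the T-cell receptor and CD28 act on this programme through AKT, which moves FOXO proteins out of the nucleus, and activated T cells are known to lose several of these transcripts.

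Female C57/BL6 Foxp3Timer Foxp3-IRES-GFP mice (Foxp3-Tocky mice, 5 to 10 weeks old by the sensitisation protocol) carry, under the control of Foxp3, the fluorescent protein Timer, which is blue when new and turns red with time. Blue thus marks recent and red marks past Foxp3 transcription. All mice had been sensitised with 3% oxazolone on the abdominal skin, no untreated mice were sequenced, and inguinal and axillary lymph nodes were taken 5 days later. GFP- Timer- cells were sorted as CD44lo naive cells (Tnaive) and CD44hi activated effector cells (Teff). Timer+ cells were sorted by colour. The persistent Foxp3 expressors were Pers1, with intermediate Blue and low Red, and Pers2, high in both. PAt cells were low in Blue and high in Red, and Arrested cells had no Blue and intermediate Red. Each population had 3 replicates from pools of 3 mice, which made 18 libraries, so a library stands for a pool and not for 1 animal, and the 4 Timer+ populations are gates on 2 colours and not separate lineages.

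Values are log2 normalised counts as deposited, so a difference of 1 is a 2-fold difference, and the read depth is unknown. The T-cell genes Cd3e and Cd4 were high in all 6 populations, with means of 13.66 to 13.87 for Cd3e and 14.49 to 15.67 for Cd4. Foxp3 had a mean of 14.42 to 14.82 in the Timer+ populations, 11.34 in Tnaive and 10.54 in Teff cells. It was thus lower in the Timer- cells than in the Timer+ cells but well above 0. Foxp3, Il2ra, Ikzf2 and Ctla4 were read as 4 regulatory T-cell markers. Their summed linear level was 3543 to 3769 in Tnaive, 14816 to 19070 in Teff and 64533 to 129708 in Timer+ libraries. Foxp3 was the 1 marker lower in Teff than in Tnaive (-0.81), and the other 3 were higher. The median of the tested genes was 9.59 to 9.61 in Tnaive and 9.68 to 9.69 in Teff libraries. Populations were compared in 1 limma model over all 18 libraries. A gene was called different at a Benjamini-Hochberg adjusted p under 0.05 over the 13190 genes together with an absolute log2 fold change over 1, and where the text says "at any fold" only the first condition applied. In sorted bulk samples, fewer cells that express a gene and less RNA per cell cannot be told apart.

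The promoters of 4 members, both TCF/LEF genes, Klf2 and Btg1, are shown as examples of 3 of the families whose levels are described next. Each runs from 250 bases before to 50 bases after a RefSeq transcription start in GRCm38.p6, 5′ to 3′ on the strand of the gene, and where a gene has several starts the one nearest to its GENCODE start is given. Capitals mark 3 short motifs searched on both strands, CTTTGA for TCF/LEF factors, GTAAACA for FOXO factors and CACCC for KLF factors, whose matches did not overlap in these windows.
Tcf7, chr11:52282965-52283264, minus strand: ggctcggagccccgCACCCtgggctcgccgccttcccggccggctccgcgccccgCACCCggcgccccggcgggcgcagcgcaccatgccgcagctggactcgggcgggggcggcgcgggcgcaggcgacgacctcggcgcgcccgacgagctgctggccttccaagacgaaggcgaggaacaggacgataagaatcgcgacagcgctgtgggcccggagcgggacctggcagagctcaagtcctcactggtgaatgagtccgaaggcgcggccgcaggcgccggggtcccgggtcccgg
Lef1, chr3:131110073-131110372, plus strand: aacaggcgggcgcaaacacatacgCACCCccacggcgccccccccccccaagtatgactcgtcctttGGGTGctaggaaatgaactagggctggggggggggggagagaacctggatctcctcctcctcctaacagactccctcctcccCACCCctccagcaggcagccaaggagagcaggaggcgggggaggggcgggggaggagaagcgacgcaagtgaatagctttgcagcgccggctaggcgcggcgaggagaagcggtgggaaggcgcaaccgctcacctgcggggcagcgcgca
Klf2, chr8:72318812-72319111, plus strand: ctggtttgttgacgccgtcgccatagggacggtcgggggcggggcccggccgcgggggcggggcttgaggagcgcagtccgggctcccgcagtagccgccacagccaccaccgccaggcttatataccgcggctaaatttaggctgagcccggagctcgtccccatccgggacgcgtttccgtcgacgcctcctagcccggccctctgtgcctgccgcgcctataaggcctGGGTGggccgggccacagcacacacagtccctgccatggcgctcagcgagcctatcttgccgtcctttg
Btg1, chr10:96616751-96617050, plus strand: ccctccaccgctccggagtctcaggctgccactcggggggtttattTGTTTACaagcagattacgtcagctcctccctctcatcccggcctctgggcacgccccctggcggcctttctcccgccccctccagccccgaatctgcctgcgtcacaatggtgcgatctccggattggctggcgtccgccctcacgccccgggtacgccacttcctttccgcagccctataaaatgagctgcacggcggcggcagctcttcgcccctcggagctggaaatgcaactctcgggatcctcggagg
These letters are a description of the windows and not of binding. In the Tcf7 window, an ATG before the RefSeq start opens a reading frame with no stop codon up to the end of the window. Part of that window may thus be coding sequence of a longer transcript. The 10 members have 16 RefSeq promoters of this length. CTTTGA was found in 2 of the 16, at another start of Lef1 and at another start of Foxp1, against 16% of 32851 mouse promoters. GTAAACA was found in 2 of the 16, in Btg1 and at another start of Tcf7 (chr11:52282546-52282845), against 3.65% of all promoters. CACCC was found in 11 of the 16, which belong to 6 members, and in 57.5% of all promoters.

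All 10 genes were lower in the pooled Pers1 and Pers2 libraries than in PAt and Arrested cells. At any fold, 10 of 10 members were lower, against 35.1% of the tested genes lower in the same comparison. With the fold threshold, Tcf7 and Klf2 were called lower, which is 2 of 10 members against 2.77% of tested genes, and no member was called higher. Every Pers1 and Pers2 library lay below every PAt and Arrested library for all 10 members, a separation found in this direction for 21.8% of tested genes. The median log2 fold change of the members was -0.81, and that of all tested genes was -0.01.

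**Figure D1:**
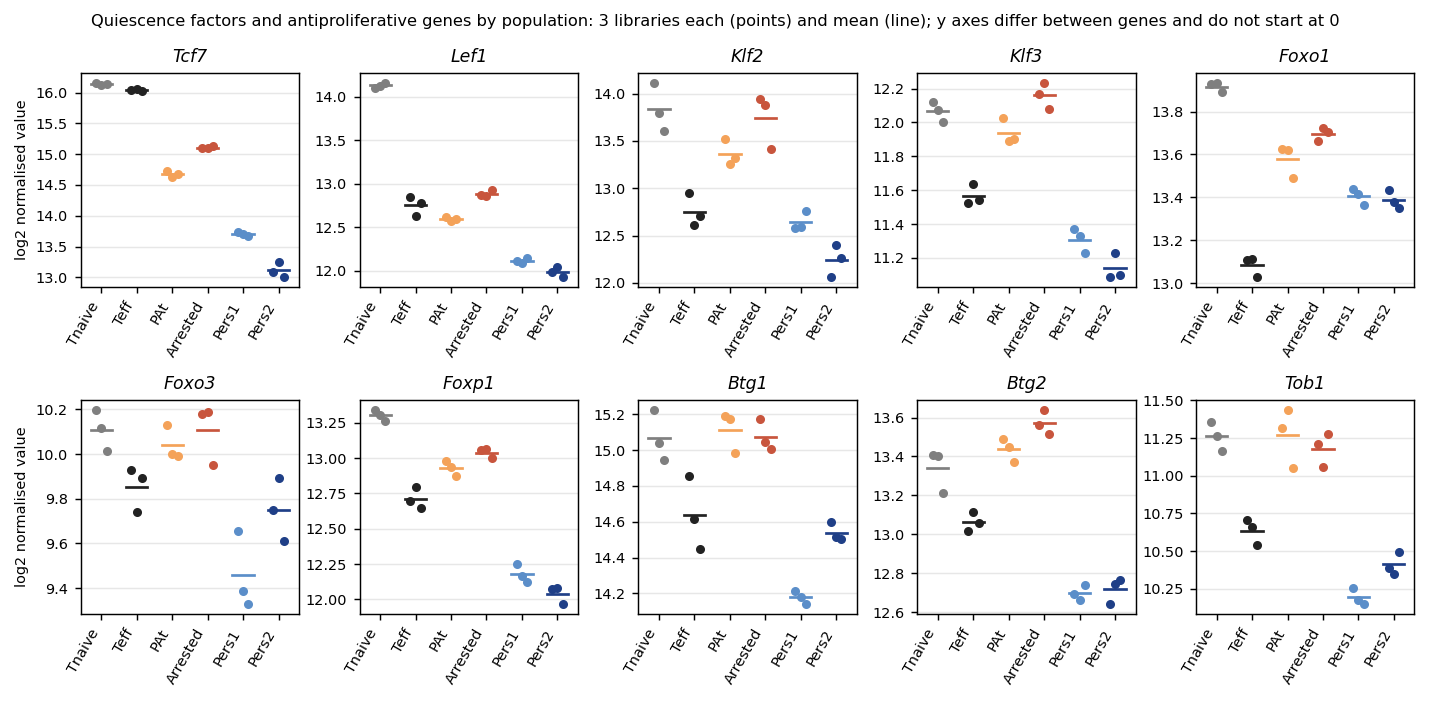
Log2 normalised value (y axis, a separate scale for each gene that does not start at 0) of the 10 genes in the 6 populations (x axis), with 3 libraries each as points and their mean as a line. The 6 Pers1 and Pers2 libraries (blue) lie below the 6 PAt and Arrested libraries (orange and red) in every panel, while the place of Teff (black) differs between genes.

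Tcf7 encodes TCF-1, an HMG-box factor needed for T-cell development and for the self-renewal of naive and memory cells. The gene lies on chromosome 11 of GRCm38 from 52252371 to 52283014 on the minus strand. Its log2 values were 16.16, 16.12 and 16.14 in the Tnaive libraries and 16.04, 16.06 and 16.02 in Teff. They were 14.72, 14.64 and 14.68 in PAt and 15.10, 15.09 and 15.13 in Arrested cells. The lowest values were 13.74, 13.70 and 13.68 in Pers1 and 13.09, 13.25 and 13.001 in Pers2. The libraries thus fell into separate levels with no overlap between any of the 6 populations. Between persistent and PAt and Arrested cells the log2 fold change of Tcf7 was -1.48 (standard error 0.04, limma adjusted p = 3.5e-18), and between persistent cells and Teff it was -2.63 (standard error 0.04, limma adjusted p = 1.2e-20). Tnaive and Teff were the only neighbours in the order of Tcf7 levels that did not pass the test, with a log2 fold change of -0.10 for Teff (95% confidence interval -0.21 to 0.01, limma adjusted p = 0.0966), but its call depended on the setting. It passed as lower after the libraries were centred on their medians (-0.18, limma adjusted p = 0.0040) and with only the 2 populations in the fit (-0.10, adjusted p = 0.0447), and as higher after quantile normalization (0.28, adjusted p = 0.000203). Over 17144 bases Tcf7 overlaps Gm26551, a lincRNA of the same strand, and it also overlaps the antisense gene A630014C17Rik over 6960 bases, so some reads counted for it could belong to these genes.

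Lef1, on chromosome 3 from 131110471 to 131224356, encodes the close relative LEF1, which binds the same DNA motif with β-catenin as a partner. Log2 values of Lef1 were 14.11, 14.13 and 14.16 in Tnaive and 12.85, 12.64 and 12.78 in Teff. The libraries held 12.62, 12.58 and 12.60 in PAt and 12.88, 12.86 and 12.93 in Arrested cells. In the persistent cells they held 12.11, 12.09 and 12.15 for Pers1 and 11.98, 12.04 and 11.92 for Pers2. Unlike for Tcf7, Teff values of Lef1 stood between those of PAt and Arrested cells and far below Tnaive. They were above those of Pers1 (difference 0.64, limma adjusted p = 7.9e-10) and Pers2 (0.77, adjusted p = 3.1e-11). Lef1 was called lower in Teff than in Tnaive (log2 fold change -1.38, standard error 0.05, limma adjusted p = 1.5e-15) and in PAt and Arrested cells than in Tnaive (-1.39, standard error 0.04, adjusted p = 1.0e-16). The difference between persistent and PAt and Arrested cells was -0.69 (standard error 0.04, limma adjusted p = 3.0e-13), under the fold threshold. Pers1 and Pers2 were the neighbours that did not pass the test (difference 0.13, limma adjusted p = 0.0973).

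Klf2 encodes a zinc-finger factor that keeps T cells resting and drives S1pr1, the receptor of lymph node exit. It lies on chromosome 8 from 72319033 to 72321656, and no other annotated gene overlaps it. Log2 values of Klf2 were 14.11, 13.79 and 13.60 in Tnaive and 12.95, 12.61 and 12.70 in Teff. They reached 13.52, 13.26 and 13.32 in PAt and 13.94, 13.88 and 13.41 in Arrested cells. Pers1 held 12.58, 12.59 and 12.76, and Pers2 held 12.06, 12.40 and 12.27. Klf2 thus formed a high group of Tnaive, Arrested and PAt libraries and a low group of Teff and persistent libraries, with a wider spread between replicates than Tcf7 (SD 0.10 to 0.29 against 0.02 to 0.13). Klf2 was called lower in persistent than in PAt and Arrested cells (log2 fold change -1.11, standard error 0.09, limma adjusted p = 7.8e-10) and in Teff than in Tnaive (-1.08, standard error 0.13, adjusted p = 3.6e-07). Without Tnaive replicate 1 the latter was -0.94, under the fold threshold. Between persistent cells and Teff the difference was -0.31 (adjusted p = 0.0231 by limma), which was -0.21 (adjusted p = 0.165) without Teff replicate 1 and -0.26 (adjusted p = 0.0569) without Pers2 replicate 1.

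Klf3 is a related zinc-finger factor that acts mainly as a repressor and is itself regulated within the KLF family. Located on chromosome 5 from 64803388 to 64832901, it had mean log2 values of 12.07 ± 0.06 in Tnaive, 11.57 ± 0.06 in Teff, 11.94 ± 0.08 in PAt, 12.16 ± 0.08 in Arrested, 11.31 ± 0.07 in Pers1 and 11.14 ± 0.08 in Pers2 (SD, n = 3). At the top of this order, Arrested and Tnaive (0.09) and Tnaive and PAt (0.13) were neighbours that did not differ past the threshold, although Arrested and PAt did (0.22), while the step from PAt to Teff (0.37) and that from Teff to Pers1 (0.26) did. The difference between persistent and PAt and Arrested cells was -0.83 (standard error 0.04, limma adjusted p = 2.7e-13).

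Foxo1, the forkhead factor that AKT signalling inactivates and that sustains Il7r, Ccr7 and Klf2 expression in naive T cells, had a different order of levels. It lies on chromosome 3 from 52268336 to 52353221. Its log2 values were 13.93, 13.93 and 13.89 in Tnaive, and Teff had the lowest of all with 13.11, 13.12 and 13.03. PAt held 13.62, 13.62 and 13.49, and Arrested cells held 13.66, 13.72 and 13.70. Pers1 held 13.44, 13.42 and 13.36, and Pers2 held 13.44, 13.38 and 13.35. Persistent libraries of Foxo1 therefore stood above all Teff libraries and below all other libraries, and no library of either overlapped. The log2 fold change of Foxo1 was -0.24 between persistent and PAt and Arrested cells (standard error 0.03, limma adjusted p = 1.1e-06) and -0.83 between Teff and Tnaive (standard error 0.05, adjusted p = 1.3e-12). Against Teff, Foxo1 was the 1 member that was higher in persistent cells (0.31, standard error 0.04, limma adjusted p = 6.8e-07), with 29.8% of tested genes higher at any fold. In that comparison 1 of 10 members was called lower, against 4.03% of tested genes, and at any fold 9 of 10 were lower, against 28.9%. Of these 9, Klf2 is described above, and Foxo3 (-0.25, limma adjusted p = 0.0131) did not pass without Teff replicate 1 (-0.21, adjusted p = 0.0684) or Teff replicate 3 (-0.23, adjusted p = 0.0522). With Pers1 and Pers2 taken apart, Klf2 passed only in Pers2, and Foxo3 and Btg1 passed only in Pers1. Teff minus Pers1 and Teff minus Pers2 were 0.11 (limma adjusted p = 0.510) and 0.51 (adjusted p = 0.0023) for Klf2. They were 0.40 (adjusted p = 0.0014) and 0.10 (adjusted p = 0.381) for Foxo3. For Btg1 they were 0.46 (adjusted p = 9.5e-05) and 0.10 (adjusted p = 0.330).

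Foxo3, a second FOXO factor with overlapping targets, lies on chromosome 10 from 42181841 to 42276755. Its means moved within a narrow range, with 10.11 ± 0.09 in Tnaive, 9.85 ± 0.10 in Teff, 10.04 ± 0.08 in PAt, 10.11 ± 0.14 in Arrested, 9.46 ± 0.17 in Pers1 and 9.75 ± 0.14 in Pers2 cells (SD, n = 3). No neighbours in the order of Foxo3 levels passed the test. The difference between persistent and PAt and Arrested cells did, at -0.47 (standard error 0.07, limma adjusted p = 2.7e-06). The difference between Teff and Tnaive was -0.25 (limma adjusted p = 0.0270), and did not pass without Tnaive replicate 1 (-0.21, adjusted p = 0.104), Tnaive replicate 2 (-0.25, adjusted p = 0.0623) or Teff replicate 2 (-0.20, adjusted p = 0.119).

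Foxp1, a forkhead repressor that keeps naive T cells quiescent and competes with FOXO1 at the Il7r locus, had its highest values in Tnaive (13.34, 13.31 and 13.26). Arrested (13.05, 13.07 and 12.9975) and PAt libraries (12.98, 12.94 and 12.87) came next, then Teff (12.70, 12.79 and 12.65). Pers1 (12.25, 12.16 and 12.12) and Pers2 (12.08, 12.08 and 11.97) were lowest. Foxp1 thus stepped down from Tnaive through Arrested and PAt cells and Teff to the persistent cells. Between persistent and PAt and Arrested cells the log2 fold change of Foxp1 was -0.87 (standard error 0.04, limma adjusted p = 8.4e-15), and against Tnaive it was -1.19 (standard error 0.04, adjusted p = 5.7e-16). Foxp1 spans chromosome 6 from 98925338 to 99522721. It shares 265238 bases with Gm20696, a protein-coding model of the same strand, so its reads may not all be separable from that model.

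Btg1 encodes an antiproliferative protein of the BTG/TOB family that holds naive T cells quiescent together with BTG2. Log2 values of Btg1, on chromosome 10 from 96617006 to 96622809, were 15.23, 15.04 and 14.94 in Tnaive and 14.86, 14.61 and 14.45 in Teff. PAt held 15.19, 15.17 and 14.98, and Arrested cells held 15.18, 15.04 and 15.0048. They were 14.21, 14.18 and 14.14 in Pers1 and 14.60, 14.51 and 14.50 in Pers2. PAt, Arrested and Tnaive libraries of Btg1 covered the same range, Teff overlapped with Pers2, and Pers1 lay below all others. The persistent cells were lower than PAt and Arrested cells by -0.74 on the log2 scale (standard error 0.06, limma adjusted p = 5.5e-10).

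Btg2, which is also an early response gene and a p53 target, lies on chromosome 1 from 134075170 to 134079120. It was highest in Arrested cells (13.56, 13.64 and 13.52), followed by PAt (13.49, 13.45 and 13.37) and Tnaive (13.41, 13.40 and 13.21). Teff held 13.02, 13.12 and 13.06, Pers1 held 12.69, 12.66 and 12.74, and Pers2 held 12.64, 12.75 and 12.76. Btg2 separated the persistent cells from Teff as well as from PAt and Arrested cells, and Pers1 and Pers2 overlapped. The difference between persistent and PAt and Arrested cells was -0.80 (standard error 0.04, limma adjusted p = 1.6e-13), and that between persistent cells and Teff was -0.36 (standard error 0.05, adjusted p = 1.9e-06).

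Tob1, the family member that restrains cytokine transcription in resting T cells, lies on chromosome 11 from 94211454 to 94215495. Its means were 11.26 ± 0.10 in Tnaive, 10.63 ± 0.09 in Teff, 11.27 ± 0.20 in PAt, 11.18 ± 0.11 in Arrested, 10.19 ± 0.06 in Pers1 and 10.41 ± 0.08 in Pers2 cells (SD, n = 3). PAt, Tnaive and Arrested cells were neighbours that did not differ past the threshold, and Teff stood between them and Pers2, from which it differed by 0.22 (limma adjusted p = 0.0308). The difference between persistent and PAt and Arrested cells was -0.92 (standard error 0.06, limma adjusted p = 1.3e-11), and quantile normalization took it just past the fold threshold, to -1.003.

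The distance of each cell state from Tnaive split the set. In PAt and Arrested cells, Tcf7 and Lef1 were called lower than in Tnaive (2 of 10 members, against 1.27% of tested genes), with a log2 fold change of -1.25 for Tcf7 (limma adjusted p = 9.1e-16) that became -0.96 after quantile normalization. At any fold, 5 of 10 members were lower, against 23.8% of tested genes. Foxo1 (-0.28) and Foxp1 (-0.32) were lower by less than the fold threshold. Klf2 was at -0.28 (adjusted p = 0.0432 by limma), which did not pass without Tnaive replicate 1 (-0.14, adjusted p = 0.339), Tnaive replicate 2 (-0.30, adjusted p = 0.0743), PAt replicate 2 (-0.25, adjusted p = 0.0811), PAt replicate 3 (-0.27, adjusted p = 0.0712) or Arrested replicate 3 (-0.20, adjusted p = 0.0936). Nor did Klf2 pass with no trend in the variances (limma adjusted p = 0.0767), with only the populations compared in the fit (adjusted p = 0.0697) or after quantile normalization (-0.23, adjusted p = 0.0802). This value averages 2 unlike populations. Klf2 was lower in PAt (Tnaive minus PAt 0.47, limma adjusted p = 0.0052), while Tnaive minus Arrested was 0.09 (adjusted p = 0.604). Klf3, Foxo3, Btg1 and Tob1 did not pass the test, with 95% confidence intervals of -0.12 to 0.09, -0.21 to 0.14, -0.13 to 0.18 and -0.19 to 0.11 for the log2 difference from Tnaive, and the sign of each of these 4 differences changed when single libraries were left out, and that of Btg1 also after centring (-0.05). Btg2 was the 1 member that was higher than in Tnaive (0.16, limma adjusted p = 0.0072), against 26.9% of tested genes higher at any fold. It did not pass after the libraries were centred on their medians (0.09, adjusted p = 0.145) or without Tnaive replicate 3 (0.10, adjusted p = 0.109). By population, Btg2 passed in Arrested cells (Tnaive minus Arrested -0.23, limma adjusted p = 0.0018) but not in PAt (Tnaive minus PAt -0.10, adjusted p = 0.166).

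The persistent cells were further from Tnaive in every member. At any fold, 10 of 10 were lower, against 35.5% of tested genes, and Tcf7 (-2.73), Lef1 (-2.08), Klf2 (-1.39) and Foxp1 (-1.19) were called lower, which is 4 of 10 members against 4.78%. Tob1 (-0.96) came just under the fold threshold and passed it after centring (-1.10), after quantile normalization (-1.05) and without Tnaive replicate 3 (-1.01). In Teff, Lef1 and Klf2 were called lower than in Tnaive (2 of 10 members, against 2.28%), and at any fold 9 of 10 were lower, against 27.7% of tested genes. Of these 9, Foxo3 did not pass without single libraries, as given above, and Btg1 (-0.43, limma adjusted p = 0.000173) did not pass after quantile normalization (-0.17, adjusted p = 0.0977). Every Teff library lay below every Tnaive library for all 10 members, Tcf7 included as deposited, against 30.8% of tested genes. Compared with Teff, PAt and Arrested cells had higher values for 8 of 10 members at any fold (24.8% of tested genes), from 0.22 for Foxo3 to 0.80 for Klf2. Tcf7 was called lower in that comparison (-1.15, 1 of 10 members against 4.04%, and 27.9% of tested genes lower at any fold), and Lef1 did not differ past the threshold (-0.01, 95% confidence interval -0.10 to 0.08). The value of Foxo3 did not pass without any 1 of 5 libraries, namely PAt replicate 1 (0.20), Arrested replicates 1 (0.20) and 2 (0.20) and Teff replicates 2 (0.16) and 3 (0.24). These comparisons share libraries with each other, so their values are given side by side only.

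**Figure D2:**
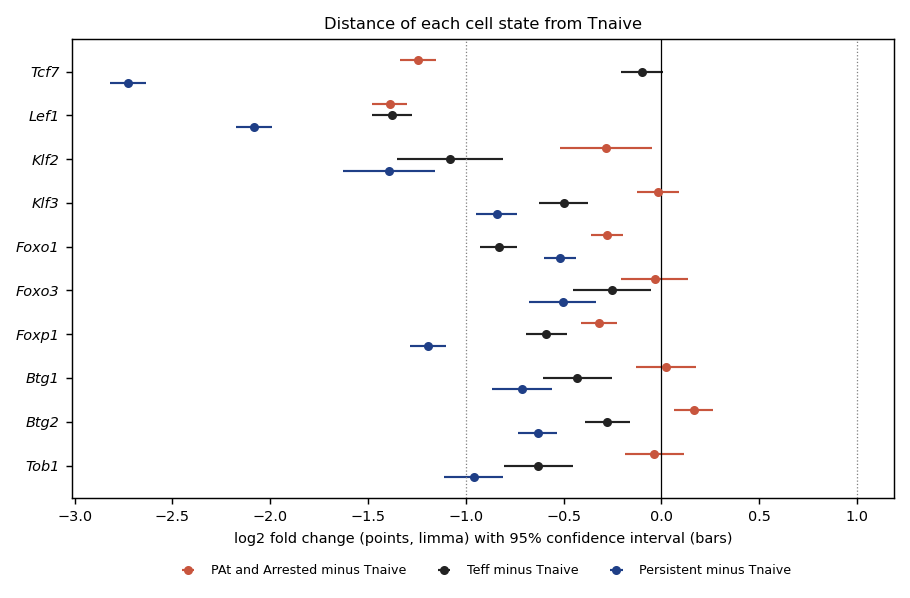
Log2 fold change against Tnaive (x axis; points, limma) with 95% confidence intervals (bars) for the 10 genes (y axis) in PAt and Arrested cells (red), Teff (black) and persistent cells (blue), with dotted lines at 1 and -1. Tcf7 stays near 0 in Teff (-0.10 as deposited, 0.28 after quantile normalization) but not in Timer+ cells, Lef1 lies at -1.38 or below in all 3, and Klf3, Foxo3, Btg1 and Tob1 lie within 0.04 of 0 in PAt and Arrested cells.

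The shift between PAt and Arrested cells and persistent cells, within Timer+ cells, was compared with the shift between Tnaive and Teff, within Timer- cells. No library is shared by the 2 shifts. Tcf7 fell in the first and had a value of -0.10 in the second, whose call and sign depended on the setting as given above, and the difference between the shifts was -1.38 (standard error 0.06, limma adjusted p = 1.6e-13), so Tcf7 was 1 of 10 members called, against 6.9% of tested genes called in that direction. Lef1 (0.68, adjusted p = 8.3e-09 by limma) and Foxo1 (0.59, adjusted p = 1.7e-08) fell more among Timer- cells. Btg2 (-0.52, limma adjusted p = 2.0e-06), Klf3 (-0.33, adjusted p = 0.00081) and Foxp1 (-0.28, adjusted p = 0.000706) fell more among Timer+ cells. The same sign was found for Btg1 (-0.31, limma adjusted p = 0.0186) and Tob1 (-0.29, adjusted p = 0.0223). Btg1 did not pass without Teff replicate 1 (-0.20) or Tnaive replicate 3 (-0.24), and Tob1 did not pass without Teff replicate 1 (-0.26), Teff replicate 2 (-0.28) or Tnaive replicate 3 (-0.24). In total 8 of 10 members differed between the shifts at any fold (48.7% of tested genes). The difference was below 0 for 6 members (25.5% of tested genes) and above 0 for 2 (23.2%). These shares of tested genes count only the sign of the difference, whether a gene fell or rose in the shifts. For Klf2 the shifts were -1.11 and -1.08, and their difference was -0.03 with a 95% confidence interval of -0.36 to 0.30. For Foxo3 the difference was -0.22 (-0.46 to 0.03).

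**Figure D3:**
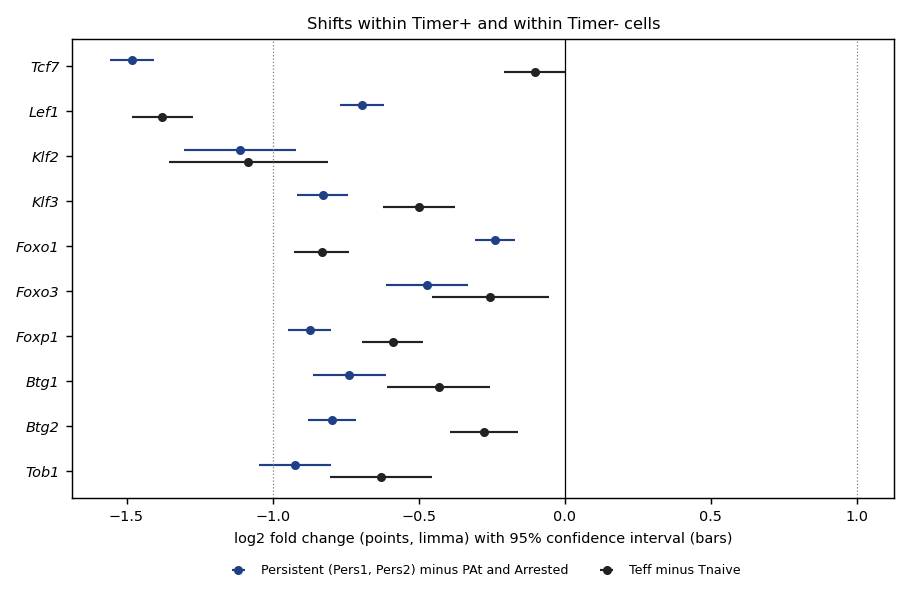
Log2 fold change (x axis; points, limma) with 95% confidence intervals (bars) of the 10 genes (y axis) for persistent against PAt and Arrested cells (blue) and for Teff against Tnaive (black), with dotted lines at 1 and -1. All blue points lie below 0, the blue point of Tcf7 is far below the black one (-1.48 and -0.10, the latter 0.28 after quantile normalization), and Lef1 and Foxo1 have the reverse order.

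Related members did not move by equal amounts. Within a library, the difference of the log2 values of 2 genes does not depend on how that library was scaled, although its size also reflects the lengths of the genes and only its change between populations is read here. The difference Tcf7 minus Lef1 had means of 1.36 ± 0.26 in the 6 persistent libraries and 2.15 ± 0.08 in the 6 PAt and Arrested libraries (SD), with no overlap. It was thus lower by -0.79 in persistent cells (two-sided exact permutation p = 0.00216, the smallest that 924 arrangements of the libraries can give, 0.0108 after adjustment over the 5 pairs of genes examined). These arrangements treat the libraries as independent, although libraries with the same replicate number were taken to be paired. The SD of 0.26 spans 2 populations, with 1.59 ± 0.05 in Pers1 and 1.13 ± 0.07 in Pers2 (SD, n = 3). Between Tnaive and Teff the same difference went from 2.01 ± 0.04 to 3.28 ± 0.13 (SD, n = 3), a change of 1.28 in the other direction. Btg1 minus Tob1 was higher in persistent cells by 0.19 (exact permutation p = 0.00866, adjusted 0.0216), and by 0.15 (adjusted 0.0595) without Pers2 replicate 1. Klf2 minus Klf3 was lower by -0.28 (exact permutation p = 0.0238, adjusted 0.0397), but the adjusted value was 0.0694 when libraries were permuted within replicate numbers only, and 9 of the 12 sets with 1 library left out did not pass (-0.35 to -0.23). Foxo1 minus Foxo3 (0.23, exact permutation p = 0.0455, adjusted 0.0568) and Btg1 minus Btg2 (0.06, exact permutation p = 0.578) did not pass.

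**Figure D4:**
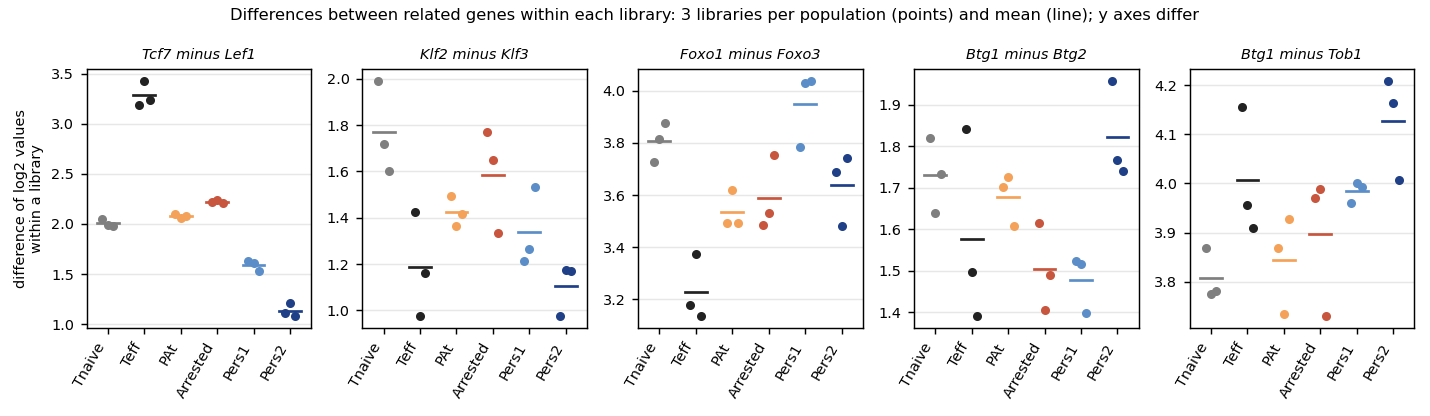
Difference of the log2 values of 2 related genes within each library (y axis, a separate scale for each pair) in the 6 populations (x axis), with 3 libraries each as points and their mean as a line. Tcf7 minus Lef1 is highest in Teff (3.18 to 3.43) and lowest in Pers2 (1.08 to 1.21), while the populations overlap in most other panels.

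Within the persistent pair and within the PAt and Arrested pair, no member was called, against 0.19% and 0.121% of tested genes, while 8 and 7 of 10 members had an unadjusted limma p under 0.05, against 24% and 18.1% of tested genes. Pers2 was lower than Pers1 in Tcf7 (-0.59, standard error 0.05, limma adjusted p = 3.4e-07) and higher in Btg1 (0.36, standard error 0.08, adjusted p = 0.0085), which is 2 of 10 members at any fold against 10.6% of tested genes. With the replicate number as a block, 4 more members passed, namely Klf2 (-0.40, limma adjusted p = 0.0248), Klf3 (-0.17, adjusted p = 0.030), Foxo3 (0.29, adjusted p = 0.016) and Foxp1 (-0.14, adjusted p = 0.023), so that 6 of 10 passed, against 14.2% of tested genes with the block. Klf2, Klf3 and Foxo3 also passed under some other settings, and Tob1 passed with only the 2 populations in the fit (0.22, limma adjusted p = 0.0426). Arrested cells were higher than PAt in Tcf7 (0.43, limma adjusted p = 2.6e-05), Lef1 (0.29, adjusted p = 0.0014) and Klf3 (0.22, adjusted p = 0.0333), which is 3 of 10 members against 2.07% of tested genes higher at any fold. The value of Klf3 did not pass without Arrested replicate 1 (0.22), Arrested replicate 2 (0.18), PAt replicate 2 (0.20) or PAt replicate 3 (0.20), nor with no trend in the variances (limma adjusted p = 0.0672) or with only the 2 populations in the fit (adjusted p = 0.140). Klf2 had the value 0.38 between Arrested and PAt cells (adjusted p = 0.108 by limma) and passed without Arrested replicate 3 (0.54, adjusted p = 0.00975).

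Genes that act with the members were read from lists, each by its count and its median log2 fold change between persistent and PAt and Arrested cells. Over all tested genes, 4.74% were called higher and 2.77% lower, 35.9% and 35.1% at any fold, with a median of -0.01. Of 16 FOXO target genes, 4 were called lower and none higher, and at any fold 12 were lower and 4 higher, with a median of -0.52. The lowest were Txnip (-1.59), which restrains glucose uptake, and Pik3ip1 (-1.40), an inhibitor of PI3 kinase, followed by the homing receptor gene Ccr7 (-1.37) and the insulin receptor substrate gene Irs2 (-1.20). The highest were Rbl2 (0.39), a pocket protein of quiescence, and Cited2 (0.33), a transcriptional coregulator, both under the fold threshold. Txnip had means of 15.35 ± 0.17 in Tnaive, 13.44 ± 0.13 in Teff, 14.65 ± 0.02 in PAt, 14.996 ± 0.07 in Arrested, 13.21 ± 0.22 in Pers1 and 13.25 ± 0.26 in Pers2 cells (SD, n = 3), so Teff stood with the persistent cells, as for Klf2.

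Of 11 tested KLF genes outside the set, Klf12 was called higher (1.27) and Klf4, an antiproliferative factor, lower (-1.64), and Klf8 (0.63) and Klf7 (-0.67) were next on either side, with a median of -0.22. At any fold, 3 were higher and 7 lower. Klf4 was higher in Teff (10.47 ± 0.35, SD, n = 3) than in Pers1 (8.73 ± 0.08) and Pers2 (9.13 ± 0.10). Of 10 tested forkhead genes outside the set, Foxm1, which drives mitotic genes, was called higher (2.36). Foxp3 (0.24) was next, Foxn3 (-0.56) and Foxj2 (-0.49) were lowest, and the median was -0.23.

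None of the 18 tested TCF/LEF partners and genes of the β-catenin pathway was called by limma, and 13 of them passed at any fold, 9 lower and 4 higher, with a median of -0.11. The lowest were Tcf7l1 (-0.77), another TCF factor, and the corepressor Tle2 (-0.64), and the highest were Ctnnb1 (0.35), which encodes β-catenin, and Nkd2 (0.35). None of 17 tested BTG/TOB relatives and deadenylase genes was called by limma either, with 7 lower and 5 higher at any fold and a median of -0.04. The deadenylase genes Pan2 (-0.68) and Pan3 (-0.56) were lowest, and the CCR4-NOT subunit genes Rqcd1 (0.64) and Cnot6 (0.52) were highest. Counts at an unadjusted p under 0.05 cannot be below these counts at any fold.

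Among 21 other regulators of T-cell quiescence, Bach2 (-2.10), a repressor of effector genes, and Tsc22d3 (-1.52), which encodes the glucocorticoid-induced protein GILZ, were called lower. Cdkn2c (1.94), which encodes the cell cycle inhibitor p18, was called higher and so went against the name of the list, and Elf4 (0.22) was the next highest. At any fold 14 were lower and 3 higher, and the median was -0.26. Bach2 had means of 12.60 ± 0.08 in Tnaive, 11.02 ± 0.11 in Teff, 11.99 ± 0.05 in PAt, 12.004 ± 0.06 in Arrested, 9.93 ± 0.09 in Pers1 and 9.87 ± 0.16 in Pers2 cells (SD, n = 3).

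**Figure D5:**
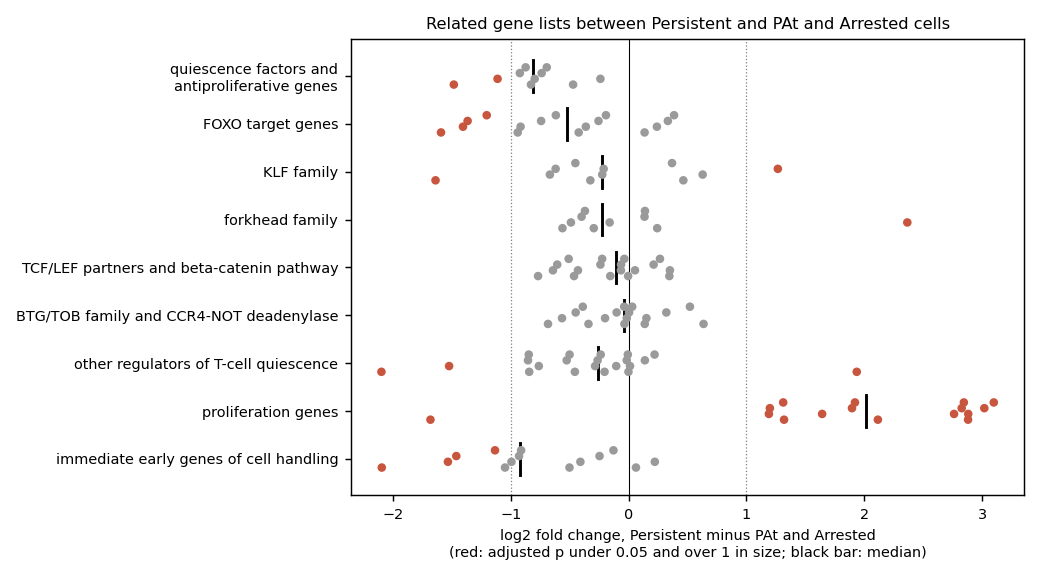
Log2 fold change between persistent and PAt and Arrested cells (x axis) for the genes of 9 lists (y axis), 1 point per tested gene, in red where the adjusted p was under 0.05 and the size over 1, with the median of each list as a black bar. The 10 members lie below 0 with a median of -0.81, the genes of their families and partners lie on both sides of 0, and 15 of 16 proliferation genes are above 1.

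Other genes moved with the same contrast. Of 16 proliferation genes, 15 were called higher in persistent cells and 1, Myc (-1.68), lower, with a median of 2.02. Ccnb1 (3.10) and Cdk1 (3.02), which drive entry into mitosis, were highest, and Mcm2 (1.19), of the replicative helicase, was the second lowest. Of 14 immediate early genes, which can also be induced while cells are handled, 4 were called lower in persistent cells (Jun -2.09, Fosb -1.53, Fos -1.46 and Hspa1b -1.13) and none higher, with a median of -0.92. Ier3 (0.22) and Atf3 (0.06, limma adjusted p = 0.687) were highest. The summed linear level of the 14 genes ran from 110798 to 145339 in the persistent libraries, from 215172 to 295432 in PAt and Arrested, from 221517 to 278568 in Tnaive and from 156607 to 198160 in Teff libraries. The sum was thus lower in persistent than in PAt and Arrested libraries, as were all 10 members. It was also lower in Teff than in Tnaive, where 9 of 10 members were lower at any fold and Tcf7 had a value of -0.10. PAt and Arrested libraries overlapped with Tnaive in this sum. Against Tnaive, 5 members were lower there at any fold, 1 was higher and 4 did not pass, with Tcf7 (-1.25) and Lef1 (-1.39) called lower. The part of the sum in the members' values was not tested.

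Markers of other cell types moved as well, those of B cells among them. All 8 B cell markers were in the table and none was at 0, with a summed linear level of 2493 to 2874 in the persistent libraries, 3632 to 5430 in PAt and Arrested, 977 to 1391 in Tnaive and 6817 to 9894 in Teff libraries. At any fold, 8 of 8 were lower in persistent than in PAt and Arrested cells, and 3 of them were called, among them Cd79a (-1.14) and Ms4a1 (-1.11). In Teff, 8 of 8 were called higher than in Tnaive, against 8.88% of tested genes. For comparison, 5 T-cell genes summed to between 70795 and 118544 over all libraries. The B cell sum was lower in persistent than in PAt and Arrested libraries, as were the members. It was higher in Teff than in Tnaive libraries, where 9 of 10 members were lower at any fold. Between PAt (4455 to 5430) and Arrested cells (3632 to 4329) it was higher in PAt. Between these 2 populations, Tcf7, Lef1 and Klf3 were lower in PAt at any fold, Klf3 not under all settings, and 7 members did not pass. The part of the B cell sum in the members' values was not tested.

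Of 6 tested plasmacytoid dendritic cell markers, 5 were called higher in Teff than in Tnaive (median 3.27) and 5 lower in persistent cells than in Teff (median -3.36), and 2 were called lower in persistent than in PAt and Arrested cells (median -0.44). Their summed linear level was 5311 to 7463 in Teff, 2002 to 2233 in Tnaive, 2368 to 2703 in PAt and Arrested and 1595 to 2279 in persistent libraries. Of 6 tested macrophage or monocyte markers, 4 were called higher in Teff than in Tnaive (median 2.19) and 5 lower in persistent cells than in Teff (median -2.08), and 1 was called higher in persistent than in PAt and Arrested cells (median -0.08). They summed to 3150 to 3851 in Teff and to 862 to 1499 in all other libraries, with Cd14 near 0 in every population. Of 6 tested CD8 T cell or NK cell markers, 3 were called higher and 1 lower in Teff than in Tnaive (median 1.08), 6 were called lower in persistent cells than in Teff (median -1.77), and 1 was called lower in persistent than in PAt and Arrested cells (median -0.45). Their sum was 3632 to 4891 in Teff, 2048 to 2436 in Tnaive, 1590 to 1915 in PAt and Arrested and 976 to 1360 in persistent libraries. The sums of all 3 lists were thus highest in Teff, and their part in the members' values was not tested. Some of these genes, such as Ccr9, Bst2 and Eomes, are also expressed by CD4+ T cells.

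The members followed each other across the 18 libraries, which share their populations, so the correlations mostly describe population means. Pearson's r of the 45 pairs of members ran from 0.216 (Tcf7 and Foxo1) to 0.963 (Btg1 with Tob1, and Klf3 with Btg2), with a median of 0.810. Of the deviations from population means, 37 of 45 pairs had an r above 0, with a range of -0.398 to 0.765 and a median of 0.271. Over all 13190 tested genes, the pattern most like that of Tcf7 was that of St8sia1 (r = 0.994), followed by Gtf2i (0.984) and Rassf2 (0.981). Lef1 was most like Adgrg3 (0.989), Pdk1 (0.988) and Als2cl (0.985). The nearest to Foxp1 were Ramp1 (0.994), Bach2 (0.987) and Dgka (0.986). Among the 3 genes closest to Foxo1 were Il4ra (0.977) and Mtss1 (0.974), and Foxo3 came closest to Cic (0.949), Erf (0.948) and Adgrl1 (0.942). For Klf2 the nearest genes were Dusp2 (0.969), Col11a2 (0.966) and Rabac1 (0.964), and for Klf3 they were Zbtb40 (0.988), B4galnt1 (0.984) and Mau2 (0.978). Btg1 was most like Prkce (0.966), Abca1 (0.956) and Rcor3 (0.956), Btg2 most like Phf1 (0.974), Mppe1 (0.971) and Gnal (0.971), and Tob1 most like Card6 (0.972), Ddx5 (0.971) and Mturn (0.970). All these r are over 18 libraries and describe likeness of pattern only.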

How the data were processed

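RNA-seq of 18 libraries from 6 populations of draining lymph node T cells was used, with 3 libraries per population. Per the labels and the study's methods, RNA of sorted cells was made into stranded mRNA libraries (TruSeq), and paired-end reads of 100 bp were demultiplexed with CASAVA 1.8.2, checked with FastQC 0.11.2 and aligned with TopHat2 2.0.9 to mm10, in which the Timer sequence was or was not included. The counting tool, its strand setting and the annotation are not given in the sources used here. The authors deposited log2 normalised counts for 15402 genes (from -0.02 to 18.89), which have the form of rlog values of DESeq2, and in 22 rows the symbol is a date. Such a transform shrinks fold changes where reads are few. Depth is unknown, since counts were not analysed here, and precision rests on 3 pools per population.

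Values were used as deposited, with no pseudocount. The 13190 genes with a mean of at least 3 were tested and 2212 left out. In limma 3.58.1 (R 4.3.3), 1 model with a mean for each of the 6 populations was fitted to the 18 libraries, which left 12 residual degrees of freedom. Variances were moderated with a trend, and p-values were adjusted by Benjamini-Hochberg over all tested genes. The thresholds of the study were used, 0.05 for the adjusted p and 1 for the absolute log2 fold change. Differences between related genes were tested by exact permutation over libraries. The script was tested on simulated data. Coordinates are those of GENCODE vM21 (GRCm38, the same build as mm10), and promoters those of RefSeq (GRCm38.p6). Python 3.11.15 with pandas 2.3.3 and matplotlib 3.10.9 was used for tables and figures.

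The members and all gene lists were chosen with earlier results of these data known. Named were all members, the 2 highest and 2 lowest genes of each list between persistent and PAt and Arrested cells, and the 3 genes most like each member. Some genes that this rule takes are not reported here. Ccr7, Irs2, Fos and Hspa1b were named after their values were seen. The older symbols Aes and Rqcd1 stand in the table in place of Tle5 and Cnot9.

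The replicate number was taken to pair libraries, since the deposited description has all populations sorted from each mouse, although it does not state outright that a number marks 1 pool. Deviations from population means had a median correlation of 0.166 between 45 pairs of libraries with the same number (-0.206 to 0.436, 32 over 0.1) and -0.064 between 90 pairs with different numbers. The model had no replicate block, as the study's methods name none. Alternatives were other filters, no trend, fits of the compared populations only, median centring, quantile normalization, a replicate block, no fold threshold, and leaving out each library.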

Additional observations from a re-analysis of the deposited data

Results flagged for a closer look

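The shift between PAt and Arrested cells and persistent cells differed from the shift between Tnaive and Teff in 8 members, by limma's test of the difference itself (adjusted p over all 13190 tested genes). The values, as the first shift minus the second on the log2 scale, were -1.38 for Tcf7 (adjusted p = 1.6e-13), 0.68 for Lef1 (adjusted p = 8.3e-09), 0.59 for Foxo1 (adjusted p = 1.7e-08) and -0.52 for Btg2 (adjusted p = 2.0e-06). They were -0.33 for Klf3 (limma adjusted p = 0.00081), -0.28 for Foxp1 (0.000706), -0.31 for Btg1 (0.0186) and -0.29 for Tob1 (0.0223). Of all tested genes, 48.7% differed between the shifts at this threshold. With the fold threshold, 6.9% of tested genes were called lower. The B cell markers also differed between the shifts, with 8 of 8 called lower and a median of -3.02. Of the tested markers of other cells, 5 of 6 for plasmacytoid dendritic cells (median -4.20), 5 of 6 for macrophages or monocytes (median -2.27, with 1 called higher) and 4 of 6 for CD8 T cells or NK cells (median -1.32) were called lower. So were 4 of 14 immediate early genes (median -0.41), and the part of these lists in the members' values was not tested.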

How the results depend on the processing

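Over 9 comparisons and 10 members, 1444 of 1470 alternative fold changes kept the direction and the call by both thresholds together, 2 lost a call, 4 gained one and 20 changed sign. The adjusted p alone crossed its threshold in 51 alternatives, in 17 of 90 results. Without a fold threshold the members past the adjusted p numbered 9 for Teff against Tnaive, 10 for persistent against PAt and Arrested cells, 10 against Teff and 10 against Tnaive, 6 for PAt and Arrested cells against Tnaive and 9 against Teff, 2 and 3 within the pairs and 8 between the shifts, and the list genes 16 (FOXO targets), 10 (KLF), 10 (forkhead), 13 (TCF/LEF partners), 12 (BTG/TOB), 17 (other regulators) and 11 (immediate early). Quantile normalization left 1 member called between PAt and Arrested cells and Tnaive, turned Tcf7 between Teff and Tnaive to 0.28 and Foxo1 between Pers2 and Pers1 to 0.011, and brought Foxo1 minus Foxo3 past the threshold (0.25, adjusted exact permutation p = 0.0361). Median centring turned Btg1 between PAt and Arrested cells and Tnaive to -0.054 and Btg2 between Pers2 and Pers1 to -0.0029. The cause was not tested. Under quantile normalization the median of all tested genes moved to -0.10 between Teff and Tnaive and between persistent cells and Tnaive, and under centring to -0.13 in the latter. The share of called genes that were higher went from 79.6% to 63.1% between Teff and Tnaive, from 68.9% to 57.2% (centring) or 55.8% (quantile) between persistent cells and Tnaive, and from 18% to 35.4% (quantile) between the shifts. With the replicate block, members called numbered 2, 2, 1, 4, 2, 1, 0, 0 and 1 in the 9 comparisons, as without it, and Klf2 minus Klf3 (-0.28) lost its call. With each library left out in turn, members called between Teff and Tnaive numbered 1 (without Tnaive replicate 1) to 2. The differences ranged from -0.35 to -0.23 for Klf2 minus Klf3, 0.18 to 0.29 for Foxo1 minus Foxo3 (past the threshold without Pers2 replicate 2 or Arrested replicate 3), -0.0023 to 0.11 for Btg1 minus Btg2 and 0.15 to 0.21 for Btg1 minus Tob1. Fold changes whose sign turned ranged from -0.047 to 0.013 for Klf3, -0.083 to 0.0090 for Foxo3, -0.038 to 0.10 for Btg1 and -0.086 to 0.017 for Tob1 between PAt and Arrested cells and Tnaive, -0.072 to 0.036 for Lef1 between PAt and Arrested cells and Teff, -0.0056 to 0.056 for Btg2 between Pers2 and Pers1 and -0.17 to 0.087 for Klf2 between the shifts. Depth per library is unknown, so counting error was not weighed, and fold changes of genes with few reads are drawn towards 0.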
